A study of Mus musculus with 5 samples.

Results

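Genes of regulatory T cells and of the interleukin (IL)-10 pathway were examined in CD4+ T cells of mice with transfer colitis and in naive T cells. The members were 10 genes listed by name, namely Foxp3, Ikzf2, Ikzf4, Lrrc32, Nrp1, Gpr83, Ebi3, Il10, Il10ra and Il10rb. A probe set with a single gene symbol was found for 9 of the 10, with 20 probe sets in all, among 18193 genes measured. Lrrc32, which encodes GARP, a surface protein that holds latent TGF-β, was not analysed here. No filter on dim genes was applied, so the 9 genes all entered the test.

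Regulatory T cells are CD4+ T cells that restrain other T cells, and the transcription factor FOXP3 sets their identity. In the gut they limit inflammation partly through IL-10, a cytokine that many effector T cells and myeloid cells also make. IL-10 acts on cells that carry the receptor chains IL10RA and IL10RB, through the kinases JAK1 and TYK2 and the transcription factor STAT3. Transfer of CD45RBhigh T cells causes colitis in lymphocyte-deficient mice because few regulatory T cells are carried along.

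CXCR6+ and CXCR6- T cells (CD3+CD4+, labelled CXCR6 Hi and CXCR6 Lo) came from the colonic lamina propria (LP) of Rag1-/- mice after transfer of CD45RBhigh CD4+ T cells. These mice lack T and B cells of their own. The study's supplement gives 6 weeks after transfer for the array cells, and the methods give 8 weeks for recipients of such transfers. For each subset 2 arrays (Affymetrix GeneChip Mouse Genome 430 2.0) were hybridized, which the labels call biological replicates. A single array held naive T cells (CD3+CD4+CD45RBhigh) of healthy mice, which the methods and one label place in the spleen and another label in the LP. The strain given for all 5 arrays is BALB/c, and the mice were used at an age of 8 to 12 weeks. The number of mice behind an array is not given in the sources used here, so that p-values reflect no more than the spread among the arrays. Donor cells for transfer were sorted without CD25, the IL-2 receptor α chain, but the array labels do not say whether CD25+ cells were kept out of the naive sample. For retransfer, the methods also sorted LP CXCR6+ and CXCR6- cells without CD25+ cells. The array methods do not say whether that gate was used for the LP arrays. The part of a CD25 gate in the signals of Foxp3 and Il2ra was not tested.

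Values are linear signals scaled so that the median probe set of each array is 1. Differences are log2 differences between group means of log2 signal, from a limma model of the 3 groups over all genes with Benjamini-Hochberg adjustment, and a gene passed at an adjusted p under 0.05. The naive array has no replicate, and its spread was taken to equal that within the LP groups. Between replicate arrays, the median absolute log2 difference was 0.792 (CXCR6+) and 0.726 (CXCR6-) for genes with a mean signal under 1, and 0.254 and 0.222 for genes between 4 and 16. Each gene is given by its brightest probe set and the others are given beside it.

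The LP and naive arrays also differed outside these genes. B cell markers summed to 2.49 to 3.26 in LP and 50.8 in naive T cells (4 of 4 measured markers lower), and Ncr1, an NK cell receptor, had 0.1 to 0.685 against 24.9. Of 4 stromal markers 3 were higher in LP, with sums of 76.8 to 133 against 7.53, and of 8 myeloid markers 3 were higher and 1 lower. CD4 T cell markers summed to 410 to 527 in LP and 406 in naive T cells, but of the 5 markers 1 was higher (Cd28, 215 to 230 against 33.5) and 2 were lower (Cd3e, 23.2 to 25.1 against 86.1, and Cd3d, 45.4 to 68.5 against 125), with a median difference of -0.84. Cd4 itself had 22.9 to 39.2 against 56.0 and did not pass. Xist, the RNA that coats the silenced X chromosome of female cells, gave 181 to 215 in LP against 0.864, and the Y-linked Eif2s3y 1.59 to 3.41 against 53.5. The Dap poly-A control RNA, which is added during preparation, had 64.6 to 102 against 0.194. LP cells also came from colitic Rag1-/- recipients and naive T cells from healthy mice, by the methods from the spleen. Cell type, host, organ, mouse sex and sample preparation cannot be told apart in the LP against naive comparison. The part of these factors in the results below was not tested.

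Against naive T cells, 2 of the 9 genes fell in LP T cells (22.2%), and 0 rose (0 also at an unadjusted p under 0.05). Over all genes tested, 18.8% were called lower and 15.1% higher, so the share of the 9 genes called lower was close to the background. The genes that fell were Foxp3 and Gpr83, each with a difference of more than 3 on the log2 scale. The median difference was -0.24 over the 9 genes and -0.14 over all genes. All 4 LP arrays lay below the naive array for 3 of the 9 genes (33.3%), where 40.9% of all genes did so, and above it for 2 genes (35.0% of all genes). The other 4 genes had a naive signal within the range of the LP arrays.

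**Figure D1:**
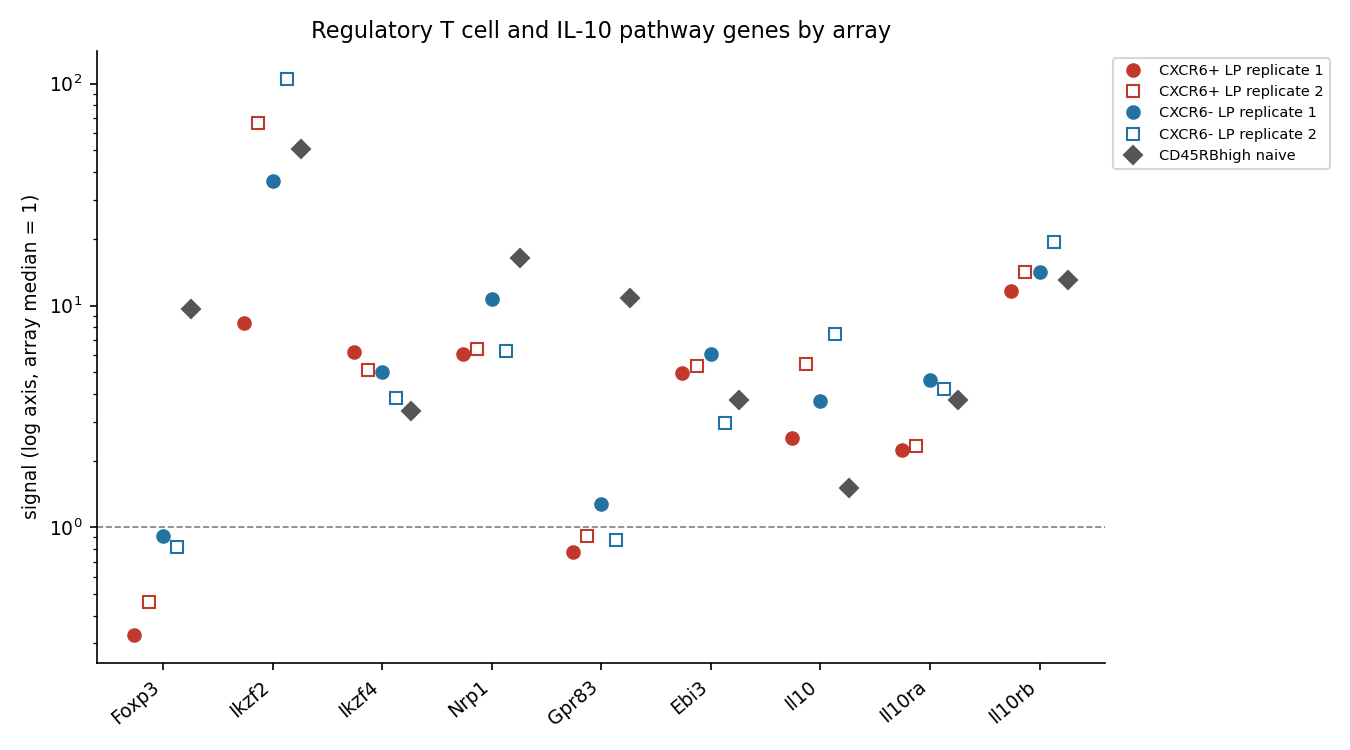
Signal of the 9 genes on each of the 5 arrays, by the brightest probe set of each gene. The y axis is a log axis of linear signal with the array median at 1 (dashed line); red marks are CXCR6+ arrays, blue marks CXCR6- arrays, filled circles replicate 1, open squares replicate 2 and grey diamonds the naive array. Foxp3 and Gpr83 sit near or below 1 on the LP arrays and near 10 on the naive array, while Il10 is higher on replicate 2 of each subset than on replicate 1.

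Foxp3 encodes the lineage-defining factor of regulatory T cells. Its single probe set gave 0.327 and 0.459 on CXCR6+, 0.913 and 0.816 on CXCR6- and 9.60 on naive arrays. All LP arrays lay below the array median and the naive array lay above it, with no overlap. The log2 difference of LP against naive T cells was -4.05 (SE 0.32, 95% interval -4.96 to -3.14, limma adjusted p = 0.0120), 16.6-fold lower. On the log2(signal + 1) scale, which compresses signals near the array median, the difference was -2.72.

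By subset, Foxp3 fell by 4.63 on the log2 scale in CXCR6+ cells (limma adjusted p = 0.0160) and by 3.48 in CXCR6- cells (adjusted p = 0.0171). Both comparisons use the same naive array. In a bulk sample, fewer cells that express a gene and less RNA per cell cannot be told apart. Without either one of the CXCR6- arrays the adjusted p of Foxp3 was 0.0509 and 0.0511, and 0 of all 18193 genes passed between LP and naive T cells, while the difference stayed between -4.18 and -3.93 across the fits that left out 1 LP array.

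Foxp3 lies on chromosome X, on the plus strand. The 250 bases before its first RefSeq start (GRCm38.p6, chrX:7579426-7579675) are shown because Foxp3 had the largest difference of the 9 genes. They hold none of 5 motifs searched on both strands, forkhead (TGTTTAC), RUNX (TGTGGT), AP-1 (TGANTCA), ETS (AGGAAG) and Ikaros (TGGGAA). Over 32851 windows of the same length, 3.17%, 14.0%, 6.75%, 29.5% and 21.6% held them in that order.
Foxp3: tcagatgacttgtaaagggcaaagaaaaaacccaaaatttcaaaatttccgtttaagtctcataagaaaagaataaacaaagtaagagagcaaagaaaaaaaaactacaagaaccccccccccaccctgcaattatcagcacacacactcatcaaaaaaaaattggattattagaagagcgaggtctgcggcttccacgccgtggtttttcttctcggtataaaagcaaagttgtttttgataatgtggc

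Ikzf2 and Ikzf4 encode Helios and Eos, Ikaros family factors found in regulatory T cells. Ikzf2 gave 8.35 and 66.8 on CXCR6+, 36.4 and 105 on CXCR6- and 50.8 on naive arrays. Replicate 2 was the higher array of each subset, and the naive array lay within the LP range. Its difference against naive T cells was -0.41 (SE 1.41, 95% interval -4.46 to 3.64, limma adjusted p = 0.841), an interval too wide to give a direction. The second probe set of Ikzf2 had signals of 13.4 and 63.0, then 28.2 and 49.8, against 9.04 on the naive array, a difference of 1.87 (SE 1.01, adjusted p = 0.236 over all probe sets). Both probe sets were again higher on replicate 2 of each subset, but they differed in sign against the naive array. The third probe set had LP signals of 0.371 to 0.720 against 0.274.

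Ikzf4 had signals of 6.14 and 5.10 (CXCR6+), 4.99 and 3.84 (CXCR6-) and 3.35 (naive). The LP arrays were all above the naive array, by 0.56 on the log2 scale (SE 0.30, limma adjusted p = 0.226), which did not pass. A second probe set of nearly the same brightness had LP signals of 2.80 to 4.67 against 4.95, on the other side of the naive array, and the third was at 0.076 to 0.138 on all arrays.

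Gpr83 encodes a G protein-coupled receptor enriched in regulatory T cells. Its brightest probe set gave 0.776 and 0.918 on CXCR6+, 1.27 and 0.875 on CXCR6- and 10.8 on naive arrays. LP and naive arrays did not overlap, and the LP arrays lay around the array median. The difference was -3.52 (SE 0.34, 95% interval -4.49 to -2.55, limma adjusted p = 0.0134), 11.4-fold lower. Gpr83 fell in CXCR6+ cells (-3.68, adjusted p = 0.0171) and in CXCR6- cells (-3.36, adjusted p = 0.0184). The other probe set of Gpr83 had LP signals of 0.071 to 0.584 against 5.27, a difference of -4.89 (SE 0.79, adjusted p = 0.0270 over all probe sets), so both probe sets fell. Without CXCR6+ replicate 1 the adjusted p of Gpr83 was 0.0502, and without either CXCR6- array it was 0.0509 and 0.0511.

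The 250 bases before the RefSeq start of Gpr83 (GRCm38.p6, chr9:14859960-14860209, plus strand) are shown as the promoter of the other gene that fell. Of the 5 motifs, these bases hold the Ikaros letters, in capitals. A match is a description of the letters and not a binding site.
Gpr83: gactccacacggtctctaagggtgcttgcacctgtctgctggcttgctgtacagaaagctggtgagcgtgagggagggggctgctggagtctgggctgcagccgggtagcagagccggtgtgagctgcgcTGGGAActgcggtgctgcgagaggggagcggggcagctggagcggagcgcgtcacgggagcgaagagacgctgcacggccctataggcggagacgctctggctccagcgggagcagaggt

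Nrp1 encodes neuropilin-1, a receptor for semaphorins and VEGF that marks regulatory T cells of thymic origin. Its brightest probe set had signals of 6.07 and 6.37 (CXCR6+), 10.7 and 6.21 (CXCR6-) and 16.3 (naive), so that the LP arrays were all below the naive array. The difference was -1.20 (SE 0.40, 95% interval -2.35 to -0.05), with an adjusted p of 0.0960 from limma, and did not pass. With quantile normalization it was -0.55. The second probe set gave 1.07, 0.664, 1.58 and 0.567 in LP against 20.5 in naive T cells, a difference of -4.52 (SE 0.72, adjusted p = 0.0261 over all probe sets), which passed. The remaining probe sets, both dimmer, had differences of 0.62 (adjusted p = 0.380) and -0.42 (adjusted p = 0.410) that did not pass. The probe sets of Nrp1 therefore differed in size and, for 1 of 4, in sign.

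Taken by probe set, 5 of the 20 fell in LP T cells and 1 rose, where 16.5% and 13.1% of all probe sets did. Those that fell were that of Foxp3, both of Gpr83, 1 of Nrp1 and 1 of Il10ra. The 1 that rose belonged to Il10rb.

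**Figure D2:**
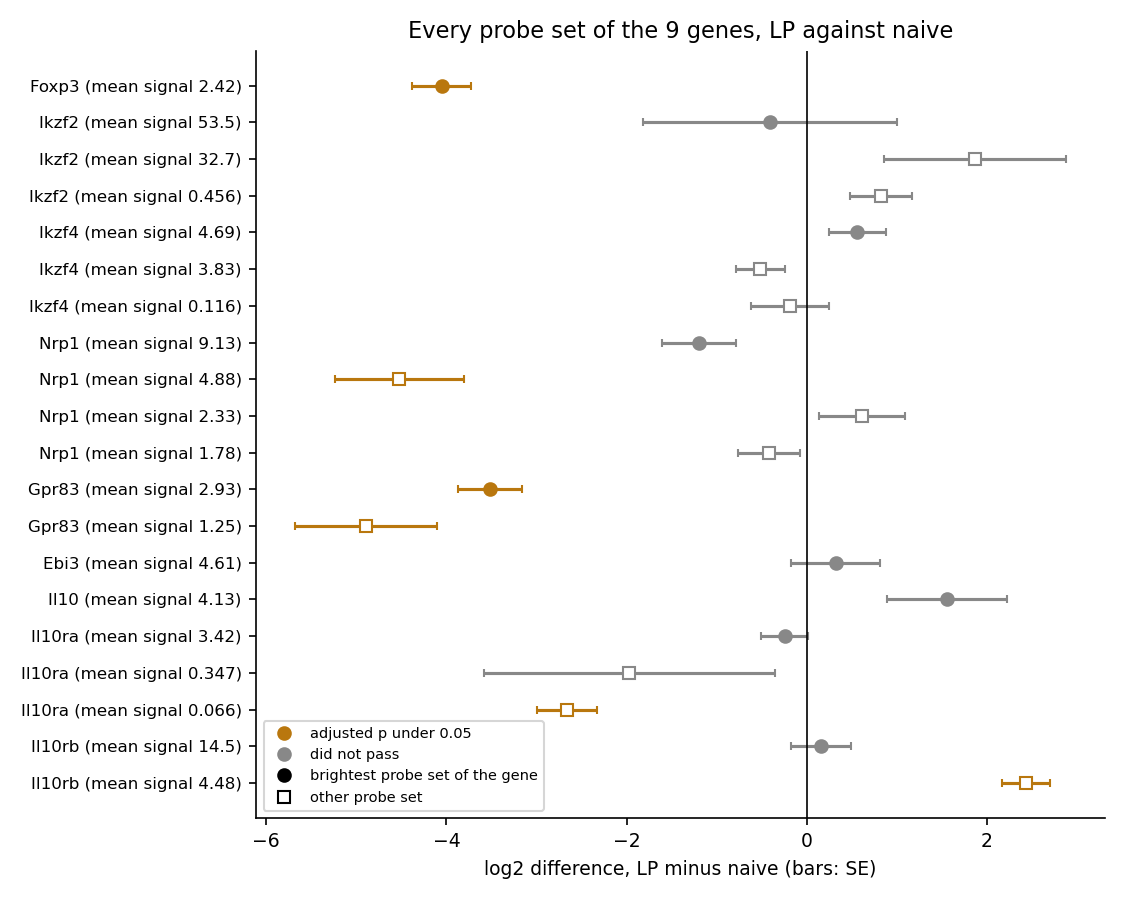
Log2 difference of LP minus naive T cells for the 20 probe sets of the 9 genes (x axis), with bars for the SE from limma. Filled circles are the brightest probe set of a gene, open squares the others, and brown marks passed at an adjusted p under 0.05 over all probe sets. The probe sets of Foxp3 and Gpr83 lie between -5 and -3, and those of Nrp1 range from -4.52 to 0.62.

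Il10 encodes the cytokine IL-10. Its single probe set gave 2.54 and 5.47 on CXCR6+, 3.71 and 7.42 on CXCR6- and 1.50 on naive arrays. All LP arrays were above the naive array, and replicate 2 was the higher array of each subset. The mean was 2.94-fold above naive T cells (log2 difference 1.56, SE 0.66, 95% interval -0.34 to 3.45), with a limma adjusted p of 0.150 that did not pass. With a variance trend and robust fitting the adjusted p was 0.0349.

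Of the 5 epithelial markers, all but Cdh1 were also higher on replicate 2 of each subset than on replicate 1. Cdh1 had 11.3 on replicate 1 and 7.77 on replicate 2 of the CXCR6+ subset. Summed over the 5 markers, the signal was 23.8 and 43.6 in CXCR6+ cells, 19.2 and 49.3 in CXCR6- cells and 9.37 in naive T cells. Krt8, a keratin, had signals of 9.36 and 25.4, then 10.3 and 29.6, against 0.387. Of the 5 epithelial markers, 1 was called higher in LP and 4 did not pass. The sums of the stromal and myeloid markers were also higher on replicate 2 of each subset. For stroma they were 76.8 and 133 in CXCR6+ and 92.4 and 123 in CXCR6- cells. For myeloid cells they were 260 and 340, then 314 and 317. Not every single marker followed, as Cd14 had 79.3 and 75.5 in CXCR6- cells. The part of epithelial, stromal or myeloid RNA in the Il10 and Ikzf2 signals was not tested.

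**Figure D3:**
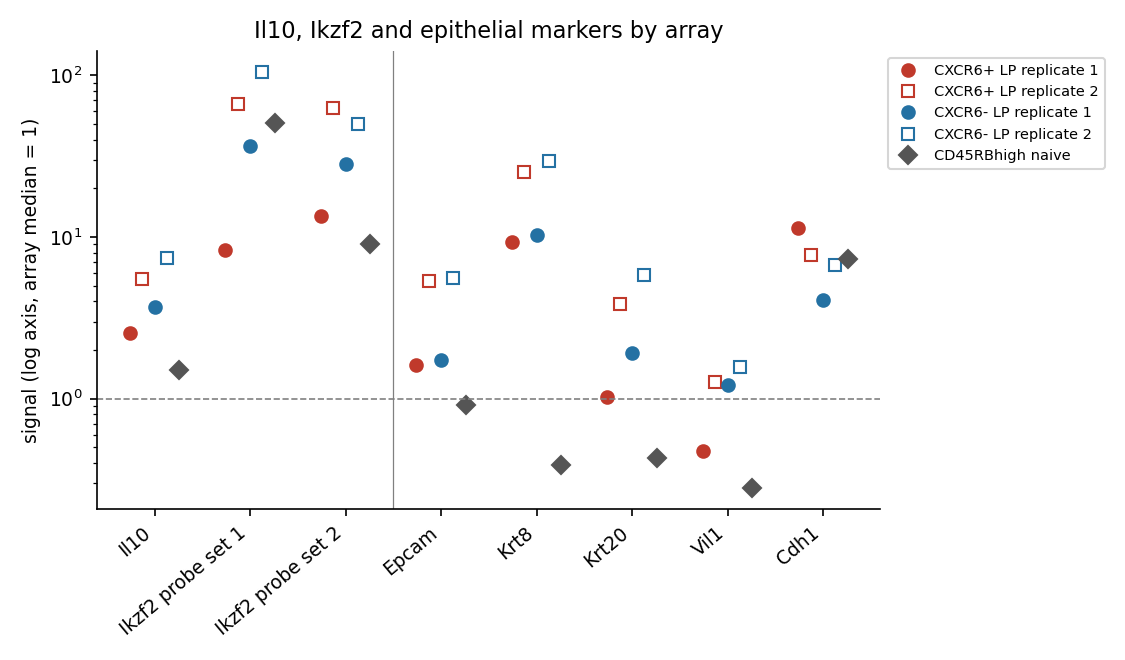
Signal of Il10, of the brightest and second probe sets of Ikzf2 and of 5 epithelial markers on each array (log axis, array median at 1, dashed line). Colours and marks are red for CXCR6+, blue for CXCR6-, filled circles for replicate 1, open squares for replicate 2 and grey diamonds for the naive array. Replicate 2 is above replicate 1 in both subsets for Il10, both Ikzf2 probe sets, Epcam, Krt8, Krt20 and Vil1, whereas Cdh1 is lower on replicate 2 of the CXCR6+ subset.

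Ebi3 encodes a subunit shared by IL-27 and IL-35. It had signals of 4.98 and 5.34 (CXCR6+), 6.05 and 2.95 (CXCR6-) and 3.74 (naive), and the naive array lay between the CXCR6- arrays. The difference against naive T cells was 0.32 (SE 0.49, 95% interval -1.08 to 1.73, limma adjusted p = 0.642).

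Il10ra, the ligand-binding chain of the IL-10 receptor, gave 2.23 and 2.34 on CXCR6+, 4.60 and 4.19 on CXCR6- and 3.75 on naive arrays. The naive array lay between the subsets. Against it the difference of LP T cells was -0.24 (SE 0.24, limma adjusted p = 0.481), and it was 0.25 with quantile normalization. Of its dimmer probe sets, 1 passed at signals of 0.029 to 0.042 against 0.201 (-2.66, adjusted p = 0.0198 over all probe sets), far below the array median. The other had 0.034 to 0.423 against 0.695.

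Il10rb, the chain that IL-10 shares with other cytokines of its family, had signals of 11.7 and 14.1 (CXCR6+), 14.2 and 19.3 (CXCR6-) and 13.1 (naive). The difference against naive T cells was 0.16 (SE 0.32, limma adjusted p = 0.730). The second probe set of Il10rb had signals of 4.69 and 4.26, then 5.90 and 6.56, against 0.975. This probe set rose by 2.44 (SE 0.27, adjusted p = 0.0173 over all probe sets), so the probe sets of Il10rb did not give the same result.

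The question put by the sort was whether CXCR6+ and CXCR6- cells of the inflamed colon differ. Between the subsets, 0 of the 9 genes passed in either direction, and the background was 0 of all genes (0%), where limma called 613 genes higher and 578 lower at an unadjusted p under 0.05. The smallest adjusted p over all genes was 0.451. No probe set passed either (0%). Cxcr6, the gene of the receptor used for the sort, gave 184 and 225 on CXCR6+, 58.1 and 25.3 on CXCR6- and 10.5 on naive arrays. Its difference between the subsets was 2.41 (SE 0.50, limma adjusted p = 0.626) and did not pass. A gene that missed the threshold here may therefore still differ. Of the 9 genes, 2 had an unadjusted p under 0.05, both lower in CXCR6+ cells, where 3.18% of all genes were lower and 6.55% either way. Foxp3 was 2.23-fold lower in CXCR6+ cells (log2 difference -1.16, SE 0.28, unadjusted p = 0.0178, adjusted p = 0.669), at signals under the array median on all 4 arrays. On the log2(signal + 1) scale this difference was -0.42, and with signals under 1 set to 1 it was 0, so its size rests on the scale of dim signals. Il10ra was 1.92-fold lower (-0.94, SE 0.22, unadjusted p = 0.0146, adjusted p = 0.655). With the mean over the probe sets of Il10ra the difference was 0.15, in the other direction.

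Both CXCR6+ arrays lay below both CXCR6- arrays for Foxp3, Il10ra and Il10rb (3 of 9, 33.3%), where 14.3% of all genes did. For Ikzf4 alone they lay above, where 25.1% of all genes did, and for the other 5 genes the subsets overlapped. The interval of the difference was -1.57 to -0.32 for Il10ra and -1.18 to 0.45 for Il10rb. For Il10 the difference was -0.50 (95% interval -2.19 to 1.20, limma adjusted p = 0.860), for Ebi3 0.29 (-0.97 to 1.54) and for Gpr83 -0.32 (-1.19 to 0.55). For Nrp1 it was -0.39 (-1.42 to 0.64), for Ikzf4 0.35 (-0.42 to 1.13) and for Ikzf2 -1.39 (-5.01 to 2.23). These intervals do not show that the subsets are alike.

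Each subset against the naive array gave 0 genes higher and 2 lower, Foxp3 and Gpr83, in CXCR6+ and in CXCR6- cells. These calls were lost for both genes with the replicate number as a block and when any 1 of the 4 LP arrays was left out. In CXCR6+ cells 13.2% of all genes were called higher and 15.3% lower, and in CXCR6- cells 12.8% and 16.7%. The median over the 9 genes was -0.71 in CXCR6+ and 0.23 in CXCR6- cells, against -0.11 and -0.15 over all genes.

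Over 6 lists of other genes of these pathways, 79 of 87 genes were measured, of which 23 rose in LP (29.1%), 11 fell (13.9%) and 45 missed the threshold, where 15.1% of all genes were called higher and 18.8% lower. The median difference was 0.50, against -0.14 over all genes, and the counts of each list below stand beside these same shares of all genes. With 1 LP array left out the counts were smaller, 7 higher and 2 lower without CXCR6+ replicate 1, 9 and 2 without CXCR6+ replicate 2, and 0 without CXCR6- replicate 1 or replicate 2. Among other genes of the regulatory T cell signature, 6 rose, 2 fell and 12 did not pass (20 measured of 24, median 0.68). Ctla4, an inhibitory receptor that activated T cells also carry, gave 250 and 256 on CXCR6+, 196 and 137 on CXCR6- and 19.2 on naive arrays. It rose by 3.41 (SE 0.32, limma adjusted p = 0.0130). Itgae, the CD103 integrin chain of cells held in epithelium, rose by 3.81, from 8.44 to signals of 106 to 134, and Penk, the enkephalin precursor, by 3.01.

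Izumo1r, which encodes folate receptor 4, had signals of 2.92 and 2.13 (CXCR6+), 5.94 and 5.95 (CXCR6-) and 48.5 (naive), and the LP arrays were all far below the naive array. It fell by 3.65 on the log2 scale (SE 0.30, adjusted p = 0.0121). Il2ra, which encodes CD25, gave 12.3 and 17.2 on CXCR6+, 3.58 and 3.18 on CXCR6- and 9.96 on naive arrays. The naive array lay between the subsets, and the difference against it was -0.51 (adjusted p = 0.279), with the other probe set of at least the array median in the opposite direction. Of the markers set for regulatory T cells, Foxp3 thus fell, Ctla4 rose and Il2ra did not pass.

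**Figure D4:**
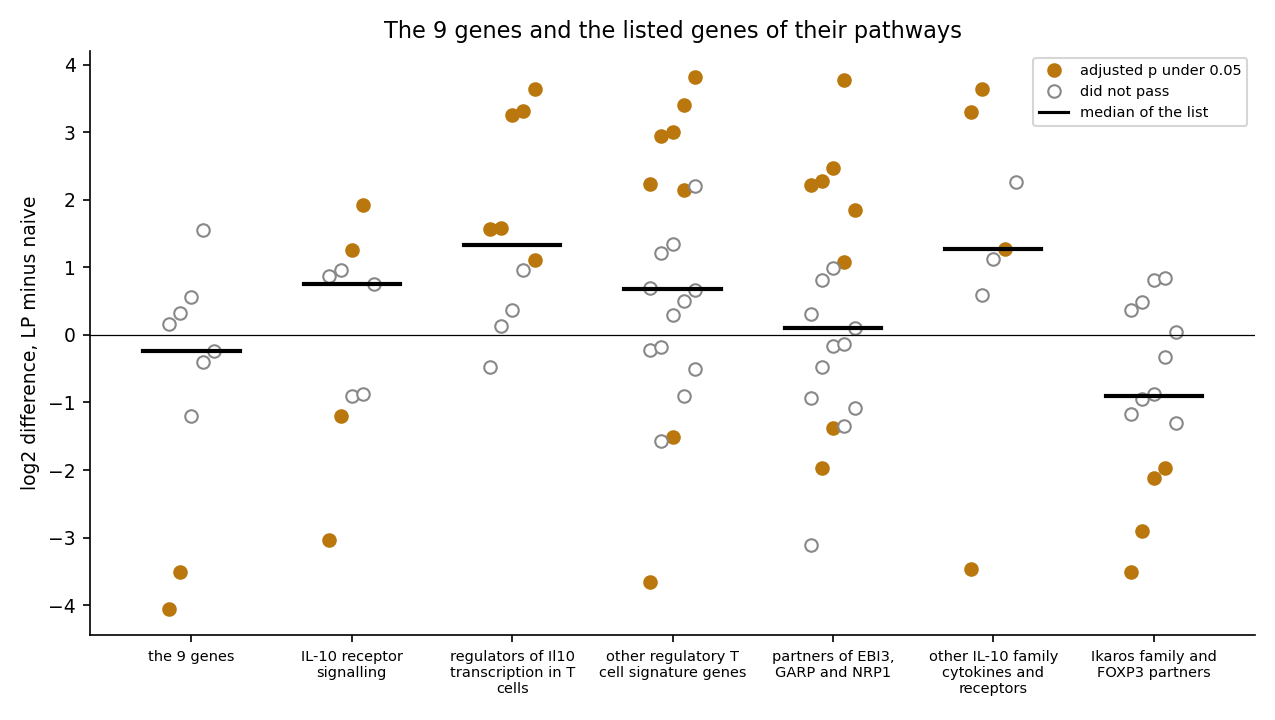
Log2 difference of LP minus naive T cells (y axis) for the 9 genes and for the genes of 6 lists of their pathways (x axis). Each point is a gene, filled points passed at an adjusted p under 0.05 over all genes, and the bar is the median of the list. The median is highest for the regulators of Il10 transcription (1.34) and lowest for the Ikaros family and FOXP3 partners (-0.91).

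Of 10 regulators of Il10 transcription, 6 rose, 0 fell and the other 4 missed the threshold (15.1% higher and 18.8% lower over all genes), with a median of 1.34. Bhlhe40, a transcription factor that represses Il10, rose by 3.64, from 14.3 to signals of 146 to 225 (limma adjusted p = 0.0119). Ahr, the aryl hydrocarbon receptor, gave 59.1, 59.6, 64.2 and 60.6 in LP and 6.15 in naive T cells. It rose by 3.31 (SE 0.24, adjusted p = 0.0119). Icos, a costimulatory receptor, rose by 3.26 and Batf, an AP-1 family factor, by 1.59. Among the genes of this list that rose were thus activators of Il10 and the repressor Bhlhe40. Not every gene that rose is named here.

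In IL-10 receptor signalling, 2 of 9 measured genes rose, 2 fell and 5 did not pass, with a median of 0.76. Stat3 rose by 1.25 (SE 0.26, limma adjusted p = 0.0374), from 19.2 to signals of 34.0 to 56.0, and Socs3, the feedback inhibitor that STAT3 induces, rose by 1.92 (adjusted p = 0.0214). Other cytokines, IL-6 among them, act through both. Hmox1, the haem oxygenase that IL-10 induces in macrophages, fell by 3.04, and Etv3, a repressor, fell by 1.20, with 1 of its 2 other probe sets of at least the array median in the same direction. The receptor kinases did not pass, with differences of 0.87 for Jak1 (adjusted p = 0.143) and -0.91 for Tyk2 (adjusted p = 0.0651).

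The binding partners of EBI3, GARP and NRP1 gave 6 genes that rose, 2 that fell and 11 that did not pass (19 measured of 20, median 0.10). Il27ra, the specific receptor chain for IL-27, had signals of 16.2 and 21.1, then 15.3 and 12.7, against 63.3. It fell by 1.98 (SE 0.30, limma adjusted p = 0.0224), and its partner chain Il6st fell by 1.39 (adjusted p = 0.0467). Il12a, whose product pairs with EBI3 in IL-35, rose by 2.22 at signals of 0.973 to 1.55 against 0.246. Vegfa, a ligand of neuropilin-1, rose by 3.77, and Plxna4, a semaphorin co-receptor, by 2.27, the last at signals of 1.03 to 1.63. Il12rb2, a receptor chain of IL-12 and IL-35, rose by 2.47, also at low signals. It had 3.05 and 2.40 on CXCR6+, 0.81 and 0.464 on CXCR6- and 0.232 on naive arrays. By subset the rise was 3.54 in CXCR6+ cells (limma adjusted p = 0.0222). In CXCR6- cells it was 1.40 and did not pass (adjusted p = 0.103). Tgfb1, whose latent product GARP binds, differed by -1.35 and missed the threshold (adjusted p = 0.145).

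Of 14 genes of the Ikaros family and FOXP3 partners, 0 rose, 4 fell and 10 did not pass, with a median of -0.91. Foxo3, a forkhead factor of resting T cells, fell by 3.51, from 77.8 to signals of 6.20 to 8.47 (limma adjusted p = 0.0120). Foxp1, a forkhead factor that keeps T cells quiescent, fell by 2.90, with 6 of its 7 other probe sets of at least the array median in the same direction. The acetyltransferase Kat5 fell by 2.12 and the deacetylase Hdac7 by 1.97. Of 7 measured genes of other IL-10 family cytokines and receptors, 3 rose, 1 fell and 3 did not pass, at low signals. Il22ra2, a soluble IL-22 antagonist, rose by 3.64 to signals of 0.771 to 1.49, Il20 by 3.29 and Ifnlr1 by 1.28, and Il22ra1 fell by 3.46 at signals of 0.042 to 0.216.

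Between the subsets, 0 of the 79 genes passed, and 9 had an unadjusted p under 0.05 (11.4%, where 6.55% of all genes did), 6 of them higher and 3 lower in CXCR6+ cells. From these, Il2ra, Prdm1, Il12rb2, Plagl1 and Izumo1r, which had the smallest unadjusted p, are named after their values were seen. Il2ra was higher in CXCR6+ cells by 2.11 on the log2 scale (unadjusted p = 0.00233, limma adjusted p = 0.525). Prdm1, which encodes BLIMP-1, gave 27.5 and 25.2 on CXCR6+ and 10.4 and 9.49 on CXCR6- arrays, a difference of 1.41 (unadjusted p = 0.00408, adjusted p = 0.551). Il12rb2 was higher in CXCR6+ cells by 2.14 (unadjusted p = 0.00651, limma adjusted p = 0.564), with both CXCR6- arrays under the array median. Plagl1, a zinc finger factor, had the largest difference of the 9 and was lower in CXCR6+ cells, at 3.11 and 6.68 against 24.9 and 22.4 in CXCR6- cells (-2.37, unadjusted p = 0.00841, limma adjusted p = 0.604). Izumo1r was also lower (-1.25, unadjusted p = 0.0117, limma adjusted p = 0.638).

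The genes most like Foxp3 and Il10 over the 5 arrays were found by the Euclidean distance between mean-centred log2 signals, among 10512 genes. Closest to Foxp3 were Prickle1 (distance 0.512), Nmnat3 (0.521) and Acsf2 (0.531). Prickle1 gave 0.507 and 0.754 on CXCR6+, 0.986 and 0.965 on CXCR6- and 13.4 on naive arrays. Closest to Il10 were Fnbp1l (0.222), Rnf225 (0.232) and Lad1 (0.296). Fnbp1l had signals of 1.63 and 3.18 (CXCR6+), 2.29 and 5.08 (CXCR6-) and 1.05 (naive). These genes were chosen for their likeness, so the shared order of the arrays is no further result.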

How the data were processed

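RNA of the 5 samples was labelled and hybridized by the authors to Affymetrix arrays. For the values, the methods name GeneSpring and the submitters' processing notes RMA. As deposited, the intensity values are linear signals with a median of 1 per array. How background was corrected, and whether probe sets were filtered, is not stated there. The small number of arrays limits precision. Among 45101 probe sets, 34945 carried 1 gene symbol, 932 several and 9160 none, and 64 controls were left out. The brightest probe set by mean signal stood for each gene. Signals were log2 transformed, with 2 signals of 0 set to 0.001. A model of the 3 groups was fitted with limma 3.58.1 in R 4.3.3 (lmFit, eBayes, two-sided, Benjamini-Hochberg, 2 residual degrees of freedom). Its code was also run on simulated data. There each gene had the same spread on every array by design, so that run cannot check the spread assumed for the naive array.

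The members and lists were chosen with earlier results of these data known. Named were all members and, from each list, the up to 4 genes with the largest differences against naive T cells among those that passed, plus binding partners of members. Promoter windows came from RefSeq (GRCm38.p6) and were found for 4 members. The alternatives changed the log scale, a filter at the 40th percentile, the normalization, the probe sets, the variance model, a replicate block, the arrays included and the test, Student's test being the one the methods name.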

Additional observations from a re-analysis of the deposited data

How the results depend on the processing

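Between the subsets, 0 of the 9 genes passed under every alternative, and 2 (Foxp3 and Il10ra) had an unadjusted p under 0.05 by the methods' t-test. Against naive T cells, the 2 genes called lower stayed 2 with the replicate block (Foxp3 adjusted p = 0.0407, Gpr83 0.0419), were 0 to 2 when 1 LP array was left out and 1 with the methods' t-test, under which 2 genes had an unadjusted p under 0.05. Genes called higher went from 0 to 1 with the mean of probe sets (Il10rb, 1.30) and to 1 with a variance trend and robust fitting (Il10). In CXCR6+ cells the 2 lower genes became 4 with the 40th percentile filter, 0 with the replicate block, 0 with each LP array left out and 0 with the methods' t-test. In CXCR6- cells they became 0 with the replicate block, 0 with each LP array left out and 0 with the t-test, and the count of higher genes was 1 with the 40th percentile filter, the mean of probe sets and the variance trend. The labels do not say that equal replicate numbers pair the arrays. Deviations of equally numbered arrays correlated by 0.0193 across all genes and by 0.192 across genes at a mean signal of at least 1, and the numbers were not treated as a pairing.

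Of the other pathway genes, 23 higher became 14 with signals under 1 set to 1, 13 with the replicate block, 15 with the t-test and 0 to 9 with 1 LP array left out, and 11 lower became 20 on the log2(signal + 1) scale, 20 with the variance trend, 7 with the block and 0 to 2 with 1 array left out. Leaving out either CXCR6- array gave 0 calls of any gene. Probe sets called higher went from 1 to 2 with the variance trend. With quantile normalization, 2772 genes were higher and 2307 lower against naive T cells, in place of 2756 and 3414, and the median over all genes moved from -0.14 to 0.00. Relative to the -0.14, the differences were -3.92 for Foxp3, -3.38 for Gpr83, -1.06 for Nrp1 and 1.69 for Il10.

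Between the subsets, leaving out 1 LP array turned the direction of Ikzf2 (-2.89 to 0.11), Nrp1 (-0.78 to 0.00189), Ebi3 (-0.23 to 0.80) and Il10 (-1.05 to 0.059), and the mean of probe sets turned Il10ra (0.15). Ikzf2 and Il10 changed sign without CXCR6+ replicate 1, Nrp1 without CXCR6- replicate 1, and Ebi3 and Il10 without CXCR6- replicate 2. Against naive T cells, the mean of probe sets turned Ikzf2 (0.76) and Ikzf4 (-0.046), leaving out 1 array turned Ikzf2 (-1.16 to 0.34), and quantile normalization turned Il10ra (0.25). None of these differences passed. The difference of Nrp1 passed on the log2(signal + 1) scale (adjusted p = 0.0236), with the 40th percentile filter (0.0258) and with the variance trend (0.0142), and that of Foxp3 did not with the t-test (0.0524). The cause of these changes was not tested, apart from the fewer arrays or genes that a setting itself leaves. Genes with a mean signal under 1 had the widest spread between replicates. Foxp3, with a mean signal of 2.42 over the 5 arrays, belongs to the genes between 1 and 4. There the median absolute log2 difference was 0.37 (CXCR6+) and 0.348 (CXCR6-). Its LP signals were all below the array median.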
